A study of Rattus norvegicus with 13 samples.

Results

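The 34 collagen genes described here are the genes whose symbol is Col, a number, a and a number and to which at least 1 peak was assigned in any of 4 CUT&Tag peak lists from rat aortic smooth muscle cell (SMC) lines. The lists name 21397 genes in all. In CUT&Tag an antibody tethers a transposase, and the DNA it cuts beside the epitope is sequenced. H3K4me2, histone H3 dimethylated at lysine 4, was profiled in control cells (cell line labelled WT) and in the lines Myocd-LSD1 and Myocd-LSD1NF, with 3 samples each. The FLAG epitope was profiled in Myocd-LSD1 cells whose fusion carries a FLAG tag, with 4 samples. Myocd is myocardin, the coactivator of serum response factor, and LSD1 is a demethylase that removes this mark. All lines grew in the same serum-containing medium. The labels do not spell out NF, what drives the fusions, whether a line is 1 clone or whether samples of a group were separate cultures, so the authors' p-values may cover technical spread only. Of 45 rat collagen genes listed for this work, the other 11, Col7a1 and Col4a5 among them, were not named in the lists and are not analysed here.

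Collagens are secreted triple helices that give the vessel wall its tensile strength. Fibrillar collagens form the cables of the media and adventitia, type IV chains form the sheet of the basement membrane around each muscle cell, and type VI chains form beaded filaments between them. H3K4me2 sits at active and poised promoters and at enhancers, so a peak marks a candidate regulatory region and is not a measure of collagen made.

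Collagen genes held 130 of 42672 H3K4me2 peaks of control cells, 125 of 42405 of Myocd-LSD1 cells, 119 of 42727 of Myocd-LSD1NF cells and 67 of 26480 FLAG peaks. In that order, 32, 32, 31 and 26 of the 34 genes had a peak, beside 86.5%, 85.1%, 83.2% and 70.7% of all genes. With 1 list per group, presence or absence of a peak carries no replicate error, and read depth is unknown. Replicates enter only through the authors' deposited table comparing Myocd-LSD1 with Myocd-LSD1NF, which lists 5183 sites at a false discovery rate (FDR) of at most 0.05. Of these, 20 overlapped a collagen peak, 13 of them higher and 7 lower in Myocd-LSD1. Where 2 levels stand side by side below, they are that table's mean log2 read concentrations, the Myocd-LSD1 level first, and a difference is Myocd-LSD1 minus Myocd-LSD1NF. As a check of cell type, all 4 SMC markers (Acta2, Myh11, Tagln and Cnn1) had a peak at most 3 kb from a transcription start site (TSS) in control and Myocd-LSD1NF cells, and all but Myh11 did in Myocd-LSD1 cells. None of the endothelial genes Pecam1, Cdh5, Tek and Vwf had one in any list, and the leukocyte genes Ptprc, Cd68 and Itgam were not named in the lists.

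Shown are the 250 bases before the start of 4 genes with a window in the RefSeq table. Their sites lie on the annotated start or, at Col4a6, 4 bp inside it. Among such collagen sites they have the largest differences between the fusion lines, 2 in each direction. The Col6a3 site, farther inside its gene and at the lowest Myocd-LSD1NF value, is not among them. Myocd-LSD1 cells had more of the mark across the start of Col6a1 and Col4a3, and less at Col4a6 and Col15a1, than Myocd-LSD1NF cells. Capitals mark CpG dinucleotides. The sequences are RefSeq's on the GRCr8 build, gene strand, whereas all peaks below are on rn6, so no peak was placed on single letters.
Col6a1 (chr20:11905440-11905689, plus strand): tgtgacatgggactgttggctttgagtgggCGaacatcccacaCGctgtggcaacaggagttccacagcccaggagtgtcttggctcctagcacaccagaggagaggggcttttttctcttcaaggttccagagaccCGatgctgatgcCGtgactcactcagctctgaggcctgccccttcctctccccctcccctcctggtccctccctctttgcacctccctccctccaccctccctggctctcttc
Col4a3 (chr9:91323740-91323989, plus strand): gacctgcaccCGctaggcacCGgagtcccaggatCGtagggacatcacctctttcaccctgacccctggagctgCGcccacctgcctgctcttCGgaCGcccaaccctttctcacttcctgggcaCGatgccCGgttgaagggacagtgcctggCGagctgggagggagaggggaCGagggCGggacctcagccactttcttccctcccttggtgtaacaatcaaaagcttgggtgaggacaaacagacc
Col4a6 (chrX:109905945-109906194, minus strand): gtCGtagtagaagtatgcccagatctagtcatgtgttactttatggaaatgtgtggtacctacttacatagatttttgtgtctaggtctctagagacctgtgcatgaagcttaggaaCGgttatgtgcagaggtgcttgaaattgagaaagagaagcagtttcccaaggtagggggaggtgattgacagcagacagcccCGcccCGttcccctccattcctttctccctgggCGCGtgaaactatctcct
Col15a1 (chr5:66297296-66297545, plus strand): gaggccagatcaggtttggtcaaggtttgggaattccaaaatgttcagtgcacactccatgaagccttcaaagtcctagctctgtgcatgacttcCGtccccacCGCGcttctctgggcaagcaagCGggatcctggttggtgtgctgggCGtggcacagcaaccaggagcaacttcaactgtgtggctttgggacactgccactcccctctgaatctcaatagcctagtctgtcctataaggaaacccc

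These windows hold 4 CpGs at Col6a1, 11 at Col4a3, 6 at Col4a6 and 5 at Col15a1. Of the collagen genes, 27 had such a window in the RefSeq table, with 29 windows in all. Col1a1, Col2a1, Col3a1, Col6a2, Col12a1, Col14a1 and Col22a1 had none, so the shares below do not cover them. Col24a1 had several windows. Those of Col4a1 and Col4a2 overlap, as do those of Col4a3 and Col4a4. The median of the 29 collagen windows was 10 CpGs, beside 5 over all 33469 windows. The CpG counts of the 4 windows shown do not sort by direction. A GC box (GGGCGG, either strand) lay in 55.2% of collagen windows and 30.5% of all windows, a CCAAT motif (either strand) in 24.1% and 34.0%, and TATAAA (either strand) in 10.3% and 12.9%. A CArG box, the name of the serum response factor motif, was in none of the collagen windows and in 1.5% of all windows, which says only that these letters are not in these 250 bases.

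Most collagen promoters carried the mark in every line. Control cells had a peak within 3 kb of a TSS at 26 of 34 collagen genes, Myocd-LSD1 cells at 25 and Myocd-LSD1NF cells at 24, beside 69.4%, 67.7% and 65.4% of all genes. As shares these are 76.5% (exact 95% binomial interval 58.8 to 89.3), 73.5% (55.6 to 87.1) and 70.6% (52.5 to 84.9), so each interval includes the share of all genes. The intervals here and below cover counting error only. All 3 lists had a promoter peak at 24 collagen genes, beside 62.0% of all genes. Col6a3 lacked one only in Myocd-LSD1NF (beside 3.05% of all genes), and Col8a2 had one only in control (beside 2.91%). The 8 collagen genes with no promoter peak in any H3K4me2 list were Col10a1, Col11a2, Col12a1, Col22a1, Col24a1, Col28a1, Col5a3 and Col6a6.

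**Figure D1:**
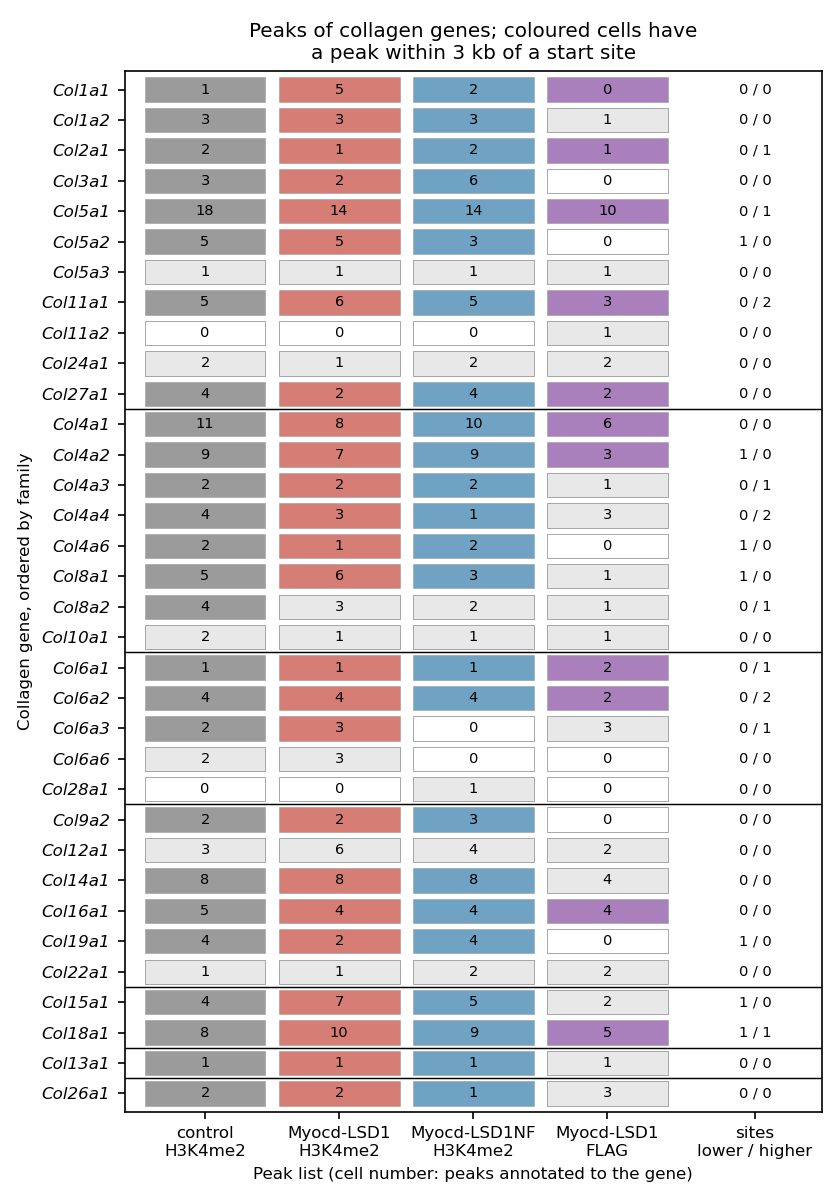
Rows are the 34 collagen genes grouped by family, columns the 4 peak lists, and each number counts the peaks annotated to the gene; dark grey, red, blue and purple cells have a peak within 3 kb of a TSS of the gene, light grey cells only peaks farther away, white cells none. The last column counts sites lower and higher in Myocd-LSD1 than in Myocd-LSD1NF; a promoter peak may be annotated to a neighbour, as at Col1a1 for FLAG.

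Outside promoters the mark lay mostly in introns. In the control, Myocd-LSD1 and Myocd-LSD1NF lists introns held 43.1%, 48.0% and 46.2% of collagen peaks, where all peaks had 25.6%, 25.9% and 27.3%. Promoters held 27.7%, 23.2% and 26.9% of collagen peaks, beside 45.8%, 44.6% and 42.5% of all peaks. Collagen genes were long, with a median annotated span of 108881 bp beside 15270 bp over all genes, and those with an H3K4me2 peak in either fusion line held a median of 6 such peaks beside 3. Col5a1 held most, with 18 peaks in control and 14 in each fusion line. Of the control collagen peaks, 67.7% (58.9 to 75.6) overlapped a peak in both other H3K4me2 lists, beside 71.8% of all control peaks. For Myocd-LSD1 these shares were 67.2% (58.2 to 75.3) and 69.9%, and for Myocd-LSD1NF 72.3% (63.3 to 80.1) and 69.5%. Assignment to the nearest TSS places some peaks inside another gene: of 61 control collagen peaks in an intron or exon, 14 lay in another collagen gene and 8, at Col10a1, Col14a1 and Col1a2, in a gene that is no collagen.

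Of the 34 collagen genes 16 had a site in the comparison of the fusion lines, 9 with higher sites only, 6 with lower sites only, and Col18a1 with both. Of the 33 collagen genes with an H3K4me2 peak in either fusion line, 10 (30.3%, 15.6 to 48.7) had a higher site, beside 12.9% of all such genes, and 7 (21.2%, 8.98 to 38.9) a lower site, beside 9.28%. Genes with more peaks have more chances to hold a site, and the part of peak number in these shares was not tested. Counted by peak, 10.4% (5.65 to 17.1) of collagen peaks in Myocd-LSD1 lay on a higher site, beside 7.1% of all its peaks, and 5.88% (2.40 to 11.7) of collagen peaks in Myocd-LSD1NF lay on a lower site, beside 5.07%. Both intervals by peak include the share of all peaks, with promoter peaks and other peaks counted together. With only sites within 3 kb of a TSS of the gene, 8 collagen genes had a higher site, beside 6.63% of all such genes. By that rule 3 had a lower one, beside 2.57%. The median difference was 1.48 over the 13 higher and -1.77 over the 7 lower collagen sites on the log2 scale, beside 2.36 and -2.09 over all sites of the authors' deposited table. In bulk chromatin, fewer cells with the mark and less mark per cell cannot be told apart.

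**Figure D2:**
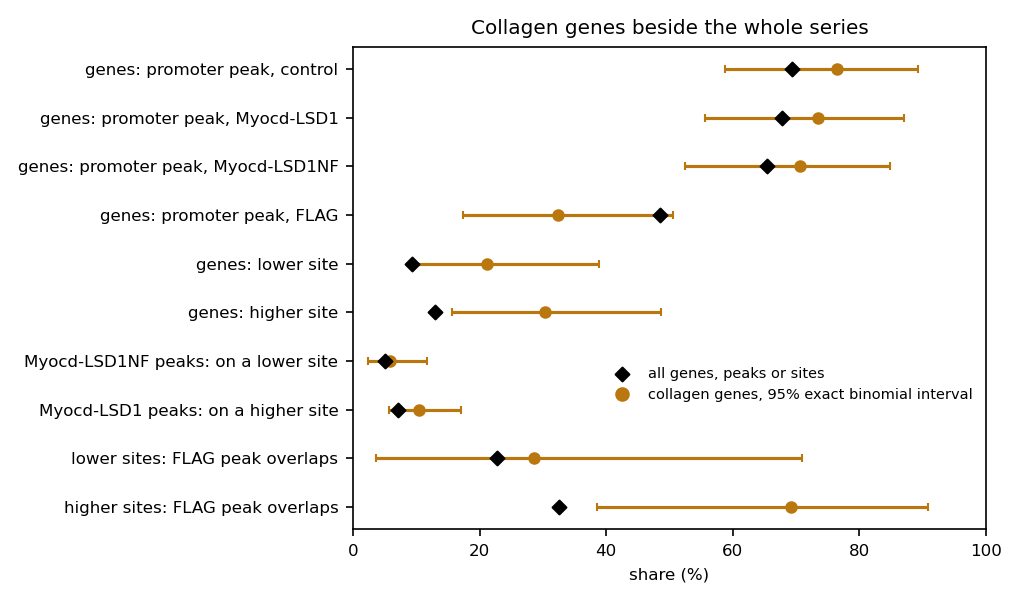
Circles give the share of collagen genes, of their peaks or of their sites, with exact 95% binomial intervals, and diamonds the share over all genes, peaks or sites. By gene, lower and higher sites were at 21.2% and 30.3% beside 9.28% and 12.9%, whereas by peak they were at 5.88% and 10.4% beside 5.07% and 7.1%.

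A higher site lay at 3 of the 5 beaded filament genes with an H3K4me2 peak in either fusion line, beside 12.9% of all such genes. These were Col6a1, Col6a2 and Col6a3, whose products assemble into the common form of collagen VI. Col6a1 and Col6a2 start near each other on chromosome 20, at 12657913 and 12773472, and whether their sites vary together was not tested. Col6a3 had no higher site at an FDR of at most 0.01. Col6a6 and Col28a1 had no site. Across the Col6a1 TSS (chromosome 20, 12657707 to 12659747, rn6) the authors' deposited table gives 8.98 for Myocd-LSD1 against 6.92 for Myocd-LSD1NF, higher by 2.06 at an FDR of 5.12e-17. Across the Col6a2 TSS on the same chromosome (12773225 to 12775518) the authors' deposited table gives 8.34 against 7.0 (difference 1.34, FDR 5.32e-09). A further Col6a2 site, at -24263 bp from the TSS, had 6.65 against 4.91 (difference 1.74, FDR 3.89e-06) by the authors' deposited table. Control cells had a peak at all 3 of these sites, and so did FLAG.

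At Col6a1 the called promoter peak spanned 1371 bp in the control list, 2014 bp in the Myocd-LSD1 list and 1295 bp in the Myocd-LSD1NF list. At Col6a2 the same lists had 992, 2293 and 1003 bp, and the added length of the Myocd-LSD1 peak lay inside the gene. The fold enrichment of the Col6a2 peak was 8.92 in its Myocd-LSD1 list and 14.2 in its Myocd-LSD1NF list, the reverse of the order of the concentrations. The order was also reversed at the higher sites of Col11a1, Col5a1 and Col4a3. At the other higher collagen sites with a peak in both lists it followed the concentrations. Fold enrichments are the authors' values over each list's own background and rank peaks only within a list. Col6a3 had a promoter site (chromosome 9, 98003788 to 98004167) with 3.19 in Myocd-LSD1 and, for Myocd-LSD1NF, the lowest value of its column, -0.11 (FDR 0.0316 by the authors' deposited table), so no fold is given. This Col6a3 site overlapped no control peak, although a control peak of 331 bp lay across the TSS nearby. The distant relative Col6a6 had peaks only upstream of the gene, in control and Myocd-LSD1, and no site.

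**Figure D3:**
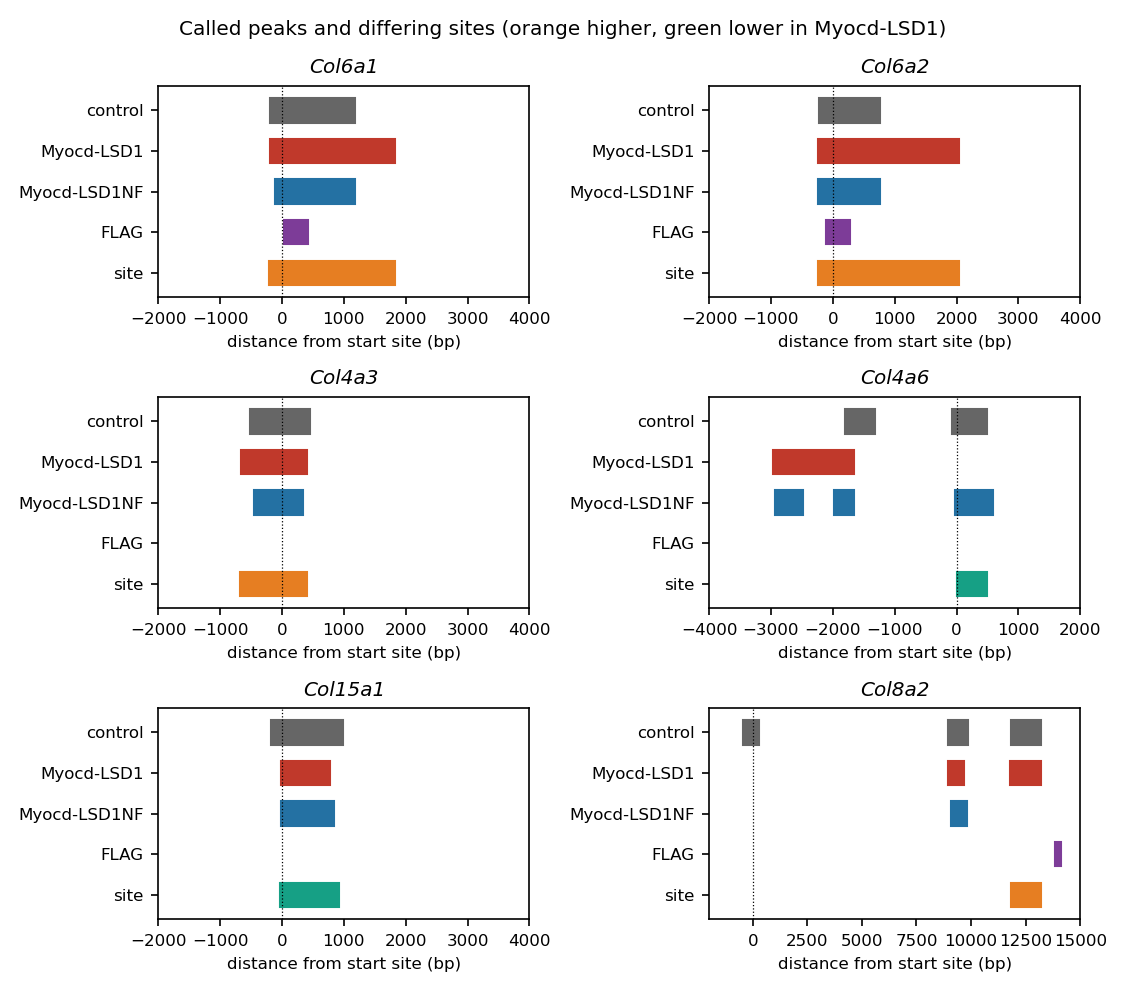
Bars show called peaks in each list and the differing site, by distance from the first annotated TSS in bp along the gene, for 6 collagen genes. The Myocd-LSD1 peaks at Col6a1 and Col6a2 reach farther into the gene than those of the other lists, the Myocd-LSD1 list has no peak over the Col4a6 start, and Col8a2 has a peak on the start only in control.

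Network collagens differed in both directions. Of 8 genes, 3 had a higher site (Col4a3, Col4a4 and Col8a2) and 3 a lower one (Col4a2, Col4a6 and Col8a1), beside 12.9% and 9.28% of all genes with a peak in either fusion line. Col4a3 and Col4a4, whose chains combine in the specialised basement membranes of kidney and lung, are transcribed away from each other from neighbouring starts. GRCr8 places these starts 413 bp apart, and those of the broadly expressed pair Col4a1 and Col4a2 77 bp apart. The site over the shared Col4a3 and Col4a4 promoter (chromosome 9, 88356857 to 88357934) had 6.33 against 4.85 (difference 1.48, FDR 0.000928) by the authors' deposited table. Inside Col4a4 the authors' deposited table lists 5.05 against 2.21 in intron 1 (difference 2.84, FDR 0.000113) and 6.37 against 5.01 in intron 4 (difference 1.36, FDR 0.000239). The intron 1 site had a peak in control and Myocd-LSD1 and none in Myocd-LSD1NF.

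Col4a6, which encodes a chain of smooth muscle and epithelial basement membranes, had the lowest difference of all collagen sites. Just inside its start (chromosome X, 112767838 to 112768333) the authors' deposited table has 2.31 against 5.59, a difference of -3.29 at an FDR of 1.47e-07. A peak crossed this start in the control list (fold enrichment 6.57) and the Myocd-LSD1NF list (7.49), and none did in the Myocd-LSD1 list. The only Myocd-LSD1 peak within 3 kb of the Col4a6 start was annotated to LOC108349243, so with annotated genes alone Col4a6 had no promoter peak in that list.

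The Col4a1 and Col4a2 promoter itself had no site, and a peak of 1633 bp (control), 2438 bp (Myocd-LSD1) or 2210 bp (Myocd-LSD1NF) covered the shared start. The lower site assigned to Col4a2 (chromosome 16, 83571258 to 83571863) lay in intron 2 of Col4a1, with 3.62 against 5.16 (difference -1.54, FDR 0.0139) by the authors' deposited table. The genes of the short-chain collagen VIII had sites in opposite directions. In intron 2 of Col8a2 (chromosome 5, 144320367 to 144321728) the authors' deposited table gives 7.31 against 4.29 (difference 3.02, FDR 8.71e-20). In intron 1 of Col8a1 (chromosome 11, 44895702 to 44896387) the authors' deposited table gives 3.47 against 5.26 (difference -1.79, FDR 0.00202). Control cells had a peak at both of these collagen VIII sites, and Myocd-LSD1NF cells had none at that of Col8a2. Whether the 2 differences differ from each other was not tested.

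The 2 multiplexins are basement membrane collagens that also carry sugar chains. Both had a lower site and 1 a higher one, beside 9.28% and 12.9% of all genes with a peak in either fusion line. Col15a1, found around muscle and vessels, had 3.39 against 5.28 across its TSS (chromosome 5, 62840336 to 62841280; difference -1.88, FDR 0.00801) by the authors' deposited table. In control its promoter peak had a fold enrichment of 14.6, above 98.3% of all peaks in that list. The corresponding Col15a1 peaks had 10.1, above 80.1% of peaks, in Myocd-LSD1NF and 5.29, above 29.6%, in Myocd-LSD1. Col18a1, whose product is cut to release endostatin, had 7.68 against 6.84 across its TSS (difference 0.84, FDR 0.0165) by the authors' deposited table. In intron 2 of Col18a1 (chromosome 20, 12248593 to 12249047) the direction was the other one, 3.97 against 5.26 (difference -1.29, FDR 0.0251), by the authors' deposited table.

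Of the 11 fibrillar genes 10 had an H3K4me2 peak in either fusion line, and of these 3 had a higher site and 1 a lower one, beside 12.9% and 9.28% of all such genes. The abundant collagens of the artery wall, Col1a1 and Col1a2 (the chains of type I) and Col3a1 (type III), were without a listed site. The highest Col1a1 promoter peak exceeded 3.15% of control peaks by fold enrichment, 7.27% of Myocd-LSD1 peaks and 8.18% of Myocd-LSD1NF peaks. For Col1a2 these shares were 29.1%, 37.7% and 31.2%, and for Col3a1 42.6%, 12.6% and 32.4%. By fold enrichment all of them lie in the lower part of their lists. Those Col1a1 peaks nevertheless had −log10 q-values of 19.73 (control), 39.07 (Myocd-LSD1) and 43.56 (Myocd-LSD1NF) from peak calling. In control and Myocd-LSD1NF they were annotated to LOC102556395. Col5a1 and Col5a2 encode type V, which starts the growth of type I fibrils. Col5a1 had 6.37 against 5.59 in intron 4 (difference 0.78, FDR 0.0354) by the authors' deposited table. Col5a2 had 3.11 against 4.88 at -37954 bp from its TSS (difference -1.77, FDR 0.0259) by the authors' deposited table.

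The fibrillar genes Col2a1 and Col11a1, known from cartilage, had higher sites. Col9a2, Col10a1 and Col11a2, also known from cartilage and named here after the values were seen, had no site. Col11a2 had no H3K4me2 peak in any list either. Inside Col2a1, 2224 bp from the TSS (chromosome 7, 139480849 to 139481773), the authors' deposited table gives 5.75 against 3.12 (difference 2.62, FDR 8.97e-07). Peaks at this Col2a1 site had fold enrichments of 10.7 (control), 11.3 (Myocd-LSD1) and 4.06 (Myocd-LSD1NF), each within its own list. At the Col11a1 TSS the authors' deposited table gives 7.28 against 6.55 (difference 0.73, FDR 0.0119), and 1073 bp inside 7.0 against 5.75 (difference 1.24, FDR 5.34e-05). Of the chondrocyte markers, Sox9 and Comp had a promoter peak in all 3 H3K4me2 lists and Acan in none. Of the 6 fibril-associated genes, Col19a1 alone had a site, a lower one, beside 9.28% of all genes with a peak in either fusion line. The Col19a1 site lay across the TSS (chromosome 9, 30864028 to 30864979), with 4.64 against 5.79 (difference -1.14, FDR 0.0218) by the authors' deposited table. Col26a1, Col27a1 and Col13a1 had promoter peaks in all 3 H3K4me2 lists and no site. Their highest fold enrichments came from different lists and cannot be ranked against each other, 10.5 for Col26a1 in Myocd-LSD1, 9.85 for Col27a1 in Myocd-LSD1NF and 9.84 for Col13a1 in control.

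**Figure D4:**
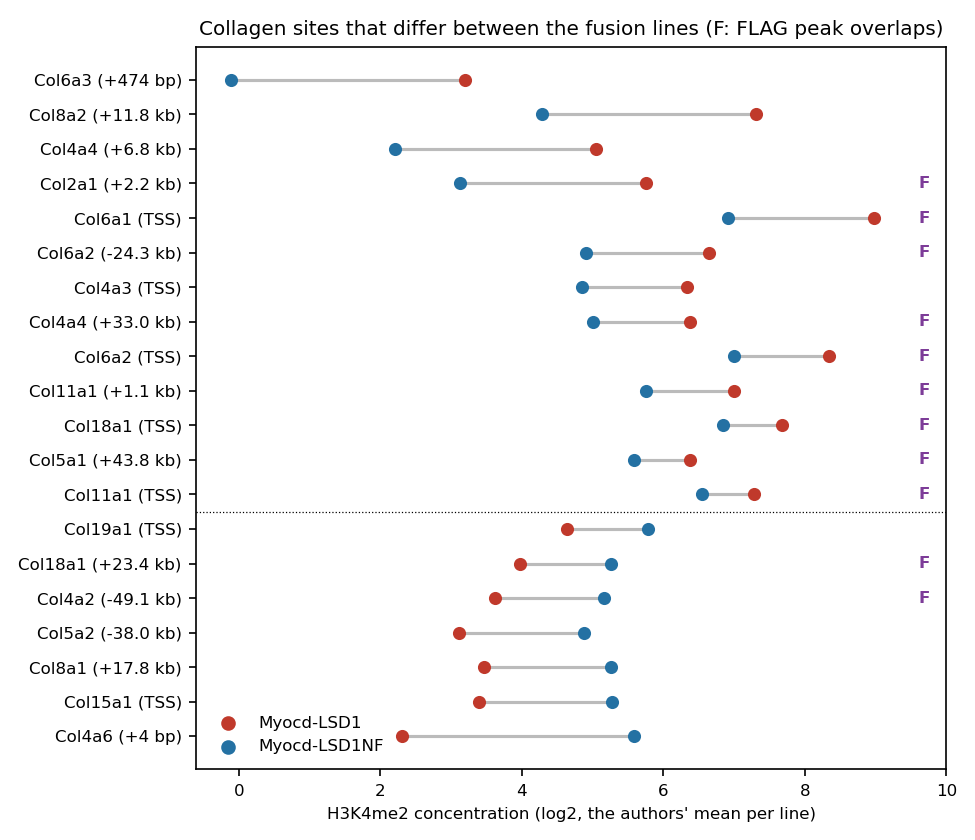
Each row is 1 of the 20 collagen sites of the authors' deposited table, with its gene and distance from the TSS; dots give the mean log2 concentrations of Myocd-LSD1 (red) and of Myocd-LSD1NF (blue), and F marks an overlapping FLAG peak. Above the dotted line are the 13 higher sites, with differences from 0.73 at Col11a1 to 3.02 at Col8a2 besides Col6a3, whose Myocd-LSD1NF level is the lowest of its column so that no difference is read from it, and below it the 7 lower sites, from -1.14 at Col19a1 to -3.29 at Col4a6.

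FLAG peaks were annotated to 26 of the 34 collagen genes, beside 70.7% of all genes. Counted by position, whatever gene a peak was annotated to, 11 collagen genes (32.4%, 17.4 to 50.5) had FLAG at most 3 kb from a TSS, beside 48.5% of all genes. Col1a1 is among these 11 and not among the 26, since its promoter peak was annotated to LOC102556395. The 11 were Col1a1, Col2a1, Col5a1, Col11a1, Col27a1, Col4a1, Col4a2, Col6a1, Col6a2, Col16a1 and Col18a1. The highest FLAG peaks by fold enrichment lay at the Col6a2 promoter (11.2), upstream of Col4a2 (10.3) and Col16a1 (9.22), in intron 2 of Col18a1 (8.92), and at a peak assigned to Col4a1 inside Col4a2 (8.25). The peak assigned to Col4a2 lay at -136213 bp from its TSS, past the far end of Col4a1, and that of Col16a1 at -10535 bp. No FLAG peak was assigned to Col1a1, Col3a1, Col5a2, Col4a6, Col6a6, Col9a2, Col19a1 or Col28a1. A FLAG peak overlapped 9 of the 13 higher collagen sites (69.2%, 38.6 to 90.9), beside 32.5% of all higher sites, and 2 of the 7 lower ones (28.6%, 3.67 to 71.0), beside 22.7%. Col11a1, Col6a2 and Col4a4 gave 2 higher sites each, which the interval counts as separate. The sites were not matched to all higher sites for width or for peaks in the other lists. Near promoters FLAG overlapped 6 of 8 higher collagen sites, beside 28.8% of all higher promoter sites, and none of the 3 lower ones at Col4a6, Col15a1 and Col19a1, beside 20.6%. The 2 directions were not tested against each other. Over all H3K4me2 peaks of collagen genes, 37.7% (control), 39.2% (Myocd-LSD1) and 39.5% (Myocd-LSD1NF) overlapped a FLAG peak, beside 39.8%, 42.0% and 40.8% of all peaks. Of the 67 collagen FLAG peaks 74.6% lay on a Myocd-LSD1 H3K4me2 peak, beside 69.0% of all FLAG peaks. Promoters held 16.4% of collagen FLAG peaks and introns 50.7%, beside 40.1% and 26.2%.

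By position, 8 of the 13 higher collagen sites lay within 3 kb of a TSS, beside 43.7% of all higher sites, and 3 of the 7 lower ones, beside 23.0%. Myocd-LSD1NF cells still had a peak at 10 of the 13 higher sites, beside 46.7%, and Myocd-LSD1 cells at 5 of the 7 lower ones, beside 51.3%. Control cells carried most of these sites too. A control peak overlapped 12 of the 13 higher collagen sites, beside 69.2% of all higher sites, and all 7 lower ones, beside 83.8%. At 2 of the higher sites, in Col4a4 and Col8a2, control had a peak where Myocd-LSD1NF had none. At 2 of the lower sites, at Col4a6 and upstream of Col5a2, control had one where Myocd-LSD1 had none. Control levels have no replicate test here.

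Genes that make, process and sense collagen were read from 4 further lists of 52 genes, of which 46 were named in the peak lists. By the same rule 4 had a lower site and 11 a higher one, out of 46 with an H3K4me2 peak in either fusion line, beside 9.28% and 12.9% of all genes. As above, genes with more peaks have more chances to hold a site, and these genes were not counted by peak. Among folding and modifying enzymes 5 of 20 had a higher site. Plod2, the lysyl hydroxylase of crosslinking sites, was higher by 2.47 (FDR 6.96e-13) by the authors' deposited table. P3h2, a prolyl hydroxylase, had sites higher by 2.79 (FDR 9.59e-08) and 2.10 (FDR 0.0194), and Colgalt2, a collagen galactosyltransferase, by 3.08 (FDR 0.0105) and 1.65 (FDR 0.00132), all from the authors' deposited table. P3h4 (1.27, FDR 0.0470) and Fkbp14 (0.68, FDR 0.0482) were the other 2 of that list, whereas Ppib, the cyclophilin that helps collagen fold, had a lower site (-1.55, FDR 0.00963), as the authors' deposited table gives them.

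Of 13 processing and crosslinking genes, 2 had lower and 2 higher sites, beside 9.28% and 12.9% of all genes with a peak in either fusion line. Adamts2, which trims the amino end of fibrillar procollagens, had 3 lower sites (-1.77, -2.43 and -0.67) and the crosslinking enzyme gene Loxl1 had 2, by the authors' deposited table. Higher sites lay at Loxl2 (2.05, FDR 0.0495) and Tll2 (1.60, FDR 8.19e-05) by the authors' deposited table. Of 8 collagen receptors, 1 had a lower site and 4 a higher one, beside the same 9.28% and 12.9%. The tyrosine kinase receptors Ddr2 (2.57, FDR 7.79e-06) and Ddr1 (0.85, FDR 0.0429) were among those with a higher site by the authors' deposited table. The integrin gene Itga11 had 2 higher sites (1.26 and 1.47) and a lower one (-2.04), and Mrc2, the receptor that takes up collagen fragments, a site with 4.35 for Myocd-LSD1 and the lowest value of the Myocd-LSD1NF column, by the authors' deposited table. None of the 5 fibril-regulating genes named in the peak lists had a site, beside the same 9.28% and 12.9%.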

How the data were processed

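Per the submitters' processing notes, the tools were Bowtie2, DiffBind, MACS2, deepTools and ChIPseeker, with rn6 as genome; no version or setting is listed. How Tn5 cut offsets and duplicates were handled and libraries scaled is not stated. The authors gave 1 peak list per group; whether replicates were pooled is not stated, and the peak names carry a single alignment name. Per the file headers the lists give a score, a fold change and a −log10 q-value. The fold change is read here as the fold enrichment (ratio over background) that MACS2 writes. The authors' deposited table gives mean log2 concentrations per line, their log2 difference (Myocd-LSD1 minus Myocd-LSD1NF), p-values and FDR, for sites at an FDR of at most 0.05 only; its lowest concentrations, -0.08 and -0.11, are floors. No file gives read depth.

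From these files, starts were turned to 1-based counting; a site that begins with a peak then starts 1 base before it. A site belonged to a gene when it overlapped by at least 1 bp any peak annotated to that gene. A promoter peak lay within 3 kb of any TSS of the gene, whatever gene it was annotated to. On 2000 simulated regions, 100% of the overlaps placed there were found. Shares carry exact (Clopper-Pearson) 95% binomial intervals; no other test was run. Members, lists and tests were chosen with earlier results of these data known. Named are all collagen genes with a site or a promoter peak missing in some list, the highest promoter and FLAG peaks, the main arterial collagens, and the other listed genes with a site. Col7a1, Col4a5, Col6a6 and the collagens without promoter peaks are named beside this rule. Alternatives changed the promoter distance, the annotation, the q-value, the FDR, the size of the difference and the overlap. Tables were made in Python 3.11.15 with pandas 2.3.3, numpy 2.4.6 and scipy 1.17.1, and figures with matplotlib 3.10.9.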

Additional observations from a re-analysis of the deposited data

How the results depend on the processing

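Collagen genes with a lower site fell from 7 to 3 at an FDR of at most 0.01 (Col15a1, Col4a6 and Col8a1, beside 5.79% of all genes) and to 3 when a site had to lie at most 3 kb from a TSS (Col15a1, Col19a1 and Col4a6, beside 2.57%). Those with a higher site numbered 10, and 7 (beside 9.27%) and 8 (beside 6.63%) under the same settings. Collagen genes with an annotated FLAG peak numbered 26, and 14 with the 50% of FLAG peaks that had the strongest q-values. By position within 3 kb of a TSS, whatever the annotation, they numbered 11, with Col1a1 not among the 26. Counts of collagen genes with a promoter peak stayed within 1.5 times under each alternative run, from 19 to 26. No paired analysis was possible because the deposited lists and table hold no values per sample; for the same reason no replicate could be left out. The authors' deposited table lists only sites that passed, so collagen sites just above its FDR limit are not shown, and depth limits which weak peaks were called.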

Other observations

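Promoter peaks of collagen genes were not wide as a set, with median widths of 756 bp in control, 792 bp in Myocd-LSD1 and 739 bp in Myocd-LSD1NF beside 750, 865 and 870 bp over all promoter peaks. A few, picked for their width, ranked high by it. The Col16a1 promoter peak spanned 3345 bp in Myocd-LSD1 cells and ranked 10 by width among 42405 peaks; in Myocd-LSD1NF it spanned 2457 bp (rank 186 of 42727) and in control 1327 bp (rank 3376 of 42672), with separate peaks of 615 bp and 221 bp downstream in these last lists. Within 3 kb of the Col1a1 start the Myocd-LSD1 list had peaks of 493 and 2629 bp (rank 115 for the wider), Myocd-LSD1NF peaks of 1885 and 559 bp, and control peaks of 307, 1284 and 491 bp. At Col5a1 a peak just inside the gene spanned 2563 bp in control, 2591 bp in Myocd-LSD1 and 2568 bp in Myocd-LSD1NF. Neither Col16a1 nor Col1a1 had a site in the authors' deposited table, and the part of depth or of peak merging in these widths was not tested.

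A site inside Col27a1 (chromosome 5, 79148538 to 79149208) had 4.63 (mean log2 concentration) for Myocd-LSD1 against 5.77 for Myocd-LSD1NF by the authors' deposited table (difference -1.15, FDR 0.0464). It overlapped a peak assigned to Orm1 and is not counted among the collagen sites.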
